A study of Rattus norvegicus with 8 samples.

Results

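The alpha and beta tubulin isotypes are the genes for the building blocks of microtubules, and 10 of them were followed here across every array of a study of spaceflight and nanoceria in rat H9c2 cells. The genes comprised 6 beta isotypes (Tubb6, Tubb2a, Tubb2b, Tubb3, Tubb4b and Tubb5) and 4 alpha isotypes (Tuba1a, Tuba1b, Tuba1c and Tuba4a), out of 15037 gene symbols named on the array. They were chosen by symbol, and the family was taken up with the difference of Tubb6 between nanoceria-treated and untreated cells already known. The nanoceria comparisons of all 10 genes, and every comparison of Tubb6, are therefore given as descriptions without a test. Spaceflight was tested for the other 9 genes.

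H9c2 is a single myoblast line derived from embryonic rat heart, and all cultures were kept in a low-serum medium in which such cells can differentiate towards skeletal muscle. Nanoceria are nanoparticles of cerium oxide that can scavenge reactive oxygen species. Rat Clariom S Pico arrays, 1 for each sample, were hybridised after labelling of 30 ng of total RNA. The 4 groups were cells kept aboard the International Space Station with 100 µg/ml nanoceria (2 arrays), cells aboard the station without nanoceria (1 array), cells on the ground with 100 µg/ml nanoceria (3 arrays) and cells on the ground without nanoceria (2 arrays, replicates 1 and 3). Every culture started from 35000 cells per square centimetre, was brought to 37 °C on day 7 and was fixed on day 10. Ground cultures followed later along the temperatures logged in flight, which means that the regime and the run of cultures cannot be told apart.

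Alpha and beta tubulin form a dimer, and dimers assemble end to end into the protofilaments of the hollow microtubule. Mammals carry several genes for each subunit, whose protein products differ mostly in the acidic C-terminal tail, the site of many tubulin modifications and of contacts with motors and associated proteins. Cells also hold their tubulin messages in check by autoregulation: when free dimer is plentiful, the factor TTC5 recognises tubulin as it emerges from the ribosome and the tubulin mRNA is degraded, as worked out in cultured mammalian cells. In differentiating muscle cells, microtubules leave the centrosome for the nuclear envelope and come to lie along the axis of the myotube.

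The deposited table held an intensity for 23188 probe sets, with array medians of 107 to 117. Levels are given as log2 intensity, so that a difference of 1 is a doubling. Each tubulin gene had 1 probe set, and levels were compared between arrays but not between genes, because probe sets bind with unequal strength. Messages of Tuba1a, Tuba1b and Tuba1c, and of Tubb2a and Tubb2b, are near-identical over much of their length, so signal shared within these groups cannot be told apart here. Of the fibroblast markers, Col1a1 lay at 14.10 to 14.24 and Pdgfra at 5.17 to 5.92, and of the smooth muscle markers, Tagln lay at 12.87 to 13.57 and Myh11 at 6.27 to 7.47. The skeletal muscle regulator Myog lay at 6.25 to 9.89. The cardiomyocyte markers ran from Ryr2 at 3.71 to 4.89 to Nppb at 6.83 to 7.19. Ground untreated replicate 3 stood apart: of 21 cell cycle genes measured, 19 had their lowest level of all 8 arrays there, so tubulin results that rest on it are given with and without it.

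On the ground, every one of the 10 tubulin genes averaged higher in nanoceria-treated than in untreated cells, by 0.50 to 1.11 on the log2 scale with a median of 0.74, against a median of 0.038 over all probe sets. Tubb6 differed most, at 2.15-fold, and Tubb2a differed by 1.68-fold. For the alpha isotypes and for Tubb3, Tubb4b and Tubb5, most of the difference was lost without ground untreated replicate 3. Without that array the median of the 10 genes was 0.27, and without ground untreated replicate 1 it was 1.33. In space, the median difference with nanoceria was 0.084.

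Tubb6, the class V beta isotype, is known from mouse for high levels in regenerating and dystrophic muscle fibres. It had log2 intensities of 11.41, 11.30 and 11.28 in nanoceria-treated cells on the ground, against 10.46 and 9.98 in untreated cells on the ground. In space it had 10.32 and 10.52 with nanoceria, against 10.07 without. The 3 ground nanoceria arrays lay above all 5 others, the lowest of them by 0.76, which was the widest such gap in the family. As group means, Tubb6 had 11.33 ± 0.071 (SD, n = 3) in treated and 10.22 ± 0.34 (SD, n = 2) in untreated cells on the ground, a difference of 1.11 ± 0.19 (SE). Left without ground untreated replicate 3, this difference was 0.87.

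Tubb2a, a class II beta isotype that is most abundant in brain but widely expressed, had 12.30, 11.95 and 11.76 in nanoceria-treated cells on the ground, against 11.20 and 11.30 in untreated cells on the ground. Its space arrays had 11.28 and 11.41 with nanoceria, against 11.26 without. The 5 arrays other than ground nanoceria thus lay between 11.20 and 11.41, and all 3 ground nanoceria arrays lay above them, by at least 0.34. The difference on the ground was 0.75 ± 0.19 (SE), and 0.80 without ground untreated replicate 3. Unlike for 8 of the 10 genes, that array was not the lowest for Tubb2a.

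The 250 bases before the start sites of these 2 genes are shown because their differences with nanoceria on the ground were the largest of the family without ground untreated replicate 3. They are RefSeq sequences of the rat build GRCr8, at chr18:63213037-63213286 (plus strand) for Tubb6 and at chr17:31001936-31002185 (plus strand) for Tubb2a. Capitals mark the letters CCAAT (the box that NF-Y binds), TATAA (the TATA box) or GGGCGG (the GC box) on either strand, as well as the cAMP response element TGACGTCA, which reads the same on both strands.
Tubb6: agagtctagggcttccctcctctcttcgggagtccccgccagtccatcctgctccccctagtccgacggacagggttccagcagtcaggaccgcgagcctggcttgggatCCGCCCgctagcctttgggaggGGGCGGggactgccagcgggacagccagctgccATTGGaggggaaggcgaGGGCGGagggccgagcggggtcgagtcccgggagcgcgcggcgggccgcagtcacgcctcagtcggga
Tubb2a: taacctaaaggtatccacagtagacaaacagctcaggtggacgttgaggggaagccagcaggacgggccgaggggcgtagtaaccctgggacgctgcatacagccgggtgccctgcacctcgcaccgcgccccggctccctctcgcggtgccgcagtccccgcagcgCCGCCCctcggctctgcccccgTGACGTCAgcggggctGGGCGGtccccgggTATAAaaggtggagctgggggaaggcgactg
The Tubb6 stretch is 71.2% G and C, has CCAAT (as its reverse complement) at position -85 from the start and GGGCGG at 3 places, and holds no TATAA. The Tubb2a stretch is 68.4% G and C and has TATAA at position -31 and TGACGTCA at position -61. TGACGTCA was found in 1.70% of 27457 rat promoters of this length and in 1 of the 10 tubulin promoters. These letters are a description of the window and do not show that a factor binds there.

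Tubb3, the class III beta isotype best known as a marker of neurons, had 8.79, 8.61 and 8.60 in nanoceria-treated cells on the ground, against 8.23 and 7.18 in untreated cells on the ground. In space its levels were 7.92 and 8.12 with nanoceria, against 8.13 without. All ground nanoceria arrays lay above the 5 others, by at least 0.38, and ground untreated replicate 3 lay 0.74 below the next array. The difference on the ground was 0.96 ± 0.29 (SE), and 0.44 without that array. The 8 neuron markers measured lay between 3.71 and 6.83 on all arrays, with Rbfox3, the neuronal nuclear protein, at 3.71 to 4.43. Relative to the mean of all arrays, the mean of that list was -0.079 to 0.15 on the ground nanoceria arrays, against 0.034 to 0.056 on the ground untreated arrays.

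Tubb4b, a broadly expressed class IV isotype that is also found in cilia, had 10.92, 10.67 and 10.75 in treated cells on the ground, against 10.52 and 9.47 in untreated cells on the ground. In space it had 10.43 and 10.54 with nanoceria, against 10.29 without. Tubb5, the widely expressed class I isotype, had 12.73, 12.66 and 12.94 in treated cells on the ground, against 12.61 and 11.52 in untreated cells on the ground. Both genes were highest on the 3 ground nanoceria arrays, but by only 0.12 for Tubb4b and 0.045 for Tubb5. Their differences on the ground were 0.79 ± 0.29 (SE) for Tubb4b and 0.71 ± 0.30 (SE) for Tubb5. Without ground untreated replicate 3 these were 0.26 for Tubb4b and 0.16 for Tubb5.

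Tubb2b, the other class II isotype, which in humans is linked to malformations of the cortex, behaved otherwise. It had 8.86, 7.87 and 7.77 in treated cells on the ground, against 7.76 and 7.57 in untreated cells on the ground. In space the levels were 7.39 and 7.77 with nanoceria, against 7.69 without. A single array, ground nanoceria replicate 1, thus stood above the rest, and the difference on the ground of 0.50 ± 0.33 (SE) was 0.15 without it.

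Of the alpha isotypes, Tuba1a, Tuba1b and Tuba1c lay furthest from their other levels on ground untreated replicate 3. Tuba1a, the isotype of developing neurons whose human mutations cause lissencephaly, had 12.53, 12.52 and 12.72 in treated cells on the ground, against 12.53 and 11.21 in untreated cells on the ground. Tuba1b, a widely expressed isotype, had 12.63, 12.62 and 12.85 in treated cells on the ground, against 12.80 and 11.15 in untreated cells on the ground. For both genes, ground untreated replicate 1 lay among the treated arrays and replicate 3 lay far below every other array, by 1.22 for Tuba1a and 1.26 for Tuba1b. Their differences with nanoceria on the ground, 0.72 ± 0.35 (SE) for Tuba1a and 0.73 ± 0.42 (SE) for Tuba1b, came to 0.061 for Tuba1a and -0.096 for Tuba1b without that array. In space, Tuba1a had 12.44 and 12.43 with nanoceria, against 12.44 without, and Tuba1b had 12.67 and 12.57 with nanoceria, against 12.42 without.

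Tuba1c, another widely expressed alpha isotype, had 11.97, 11.66 and 11.68 in treated cells on the ground, against 11.53 and 10.19 in untreated cells on the ground. In space it had 11.44 and 11.47 with nanoceria, against 11.44 without. The treated ground arrays were the highest by 0.13, and the difference of 0.91 ± 0.36 (SE) was 0.24 without ground untreated replicate 3. Tuba4a, whose message encodes no C-terminal tyrosine in human and mouse and which is prominent in muscle and platelets, had 11.79, 11.26 and 11.78 in treated cells on the ground, against 11.34 and 10.61 in untreated cells on the ground. Its groups overlapped, and the difference of 0.63 ± 0.28 (SE) was 0.27 without ground untreated replicate 3.

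The promoters of Tuba1a and Tuba1b are shown because this pair had the most similar levels over all 8 arrays (Pearson's r = 0.99) while their upstream sequences differ. Without ground untreated replicate 3 their r was 0.75, against a median of 0.78 over all pairs of the family. Signal shared between the probe sets of this pair also cannot be told apart here. They lie at chr7:131995820-131996069 and chr7:131972588-131972837 in GRCr8, both on the minus strand, and are again RefSeq sequences in which capitals mark the same letters as above.
Tuba1a: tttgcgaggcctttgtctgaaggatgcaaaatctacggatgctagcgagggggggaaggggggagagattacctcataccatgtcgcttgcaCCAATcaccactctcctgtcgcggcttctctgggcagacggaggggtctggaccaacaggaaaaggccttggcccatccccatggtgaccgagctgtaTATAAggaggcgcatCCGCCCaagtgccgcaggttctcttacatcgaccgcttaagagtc
Tuba1b: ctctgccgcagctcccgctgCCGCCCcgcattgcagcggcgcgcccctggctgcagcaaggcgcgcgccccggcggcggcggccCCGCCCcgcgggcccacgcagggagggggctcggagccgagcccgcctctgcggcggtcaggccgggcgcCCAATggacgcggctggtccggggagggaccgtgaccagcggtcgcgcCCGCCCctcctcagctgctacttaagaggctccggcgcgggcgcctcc
The Tuba1a stretch is 56.8% G and C, with TATAA at position -60 and CCAAT at position -158. The Tuba1b stretch is 80.4% G and C, with CCAAT at position -96 and no TATAA. Over the 10 tubulin promoters, all of which had a RefSeq entry, CCAAT was found in 8, against 34.3% of the 27457 rat promoters. TATAA was found in 6, against 24.1% of all, and GGGCGG in 9, against 32.4% of all. TTTGAA, the core of the cell-cycle homology region, was found in 2 (Tubb4b and Tuba1c), against 16.0% of all, and CAGCTG, an E-box of the kind that myogenic factors bind, in 2 (Tubb6 and Tuba1b), against 11.9%. The CArG box was found in 0 of 10, against 1.50%. The tubulin promoters had 52% (Tubb4b) to 80.4% (Tuba1b) G and C, against a median of 52% over all promoters. The shares over all promoters were not matched for this content.

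Counted over the family, 7 of the 10 genes were higher on every ground nanoceria array than on every ground untreated array, which held for 14.3% of all probe sets. The exceptions were Tuba1a, Tuba1b and Tuba4a. A stricter count took all 5 other arrays as the comparison and gave 6 genes (Tubb6, Tubb2a, Tubb3, Tubb4b, Tubb5 and Tuba1c), against 6.79% of all probe sets. Both counts were the same without ground untreated replicate 3, but leaving out a comparison array could only keep or raise them. Since this contrast was known when the family was chosen, nothing is read from either count.

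Markers of skeletal muscle were on average highest on the ground nanoceria arrays. Relative to the mean of all arrays, the mean of the 9 skeletal muscle markers measured was 0.48, 0.30 and 0.85 in treated cells on the ground, against -0.18 and -1.13 in untreated cells on the ground. In space it was -0.32 and -0.012 with nanoceria, against 0.012 without. Of the 9, 3 (Acta1, Tnni1 and Chrna1) were higher on all ground nanoceria arrays than on the 5 others. The median difference of the 9 with nanoceria on the ground was 1.14, and 0.56 without ground untreated replicate 3. The skeletal actin gene Acta1 had 10.27, 10.29 and 10.81 in treated cells on the ground, against 9.21 and 7.52 in untreated cells on the ground, whereas Des, the muscle intermediate filament, had 7.54, 7.66 and 7.33, against 7.12 and 6.64, and reached 7.80 in space. The part of this in the tubulin levels was not tested, and a larger share of differentiated cells cannot be told apart from more RNA per cell in such bulk samples.

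On ground untreated replicate 3, 8 of the 10 tubulin genes had their lowest level of all 8 arrays, against 16.5% of all probe sets. Tubb2a and Tubb2b were the exceptions. Compared with the mean of the other 7 arrays, the level there was lower by 1.30 to 1.50 for Tuba1a, Tuba1b and Tuba1c and by 1.10 to 1.16 for Tubb3, Tubb4b and Tubb5. It was lower by 0.78 for Tubb6, 0.68 for Tuba4a, 0.30 for Tubb2b and 0.29 for Tubb2a. The same array had the lowest mean of the cell cycle genes, -1.81 relative to the mean of all arrays, against 0.0084 to 0.47 on the other 7, and 8 of the 9 skeletal muscle markers were lowest there. The mean of the 4 smooth muscle markers was -0.74 there, against -0.089 to 0.25 on the other 7, with 3 of 4 lowest there. Stmn1, a tubulin-sequestering protein abundant in dividing cells, had 10.12 there and 11.08 to 11.86 elsewhere. The part of these lists in the low tubulin levels was not tested.

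**Figure D1:**
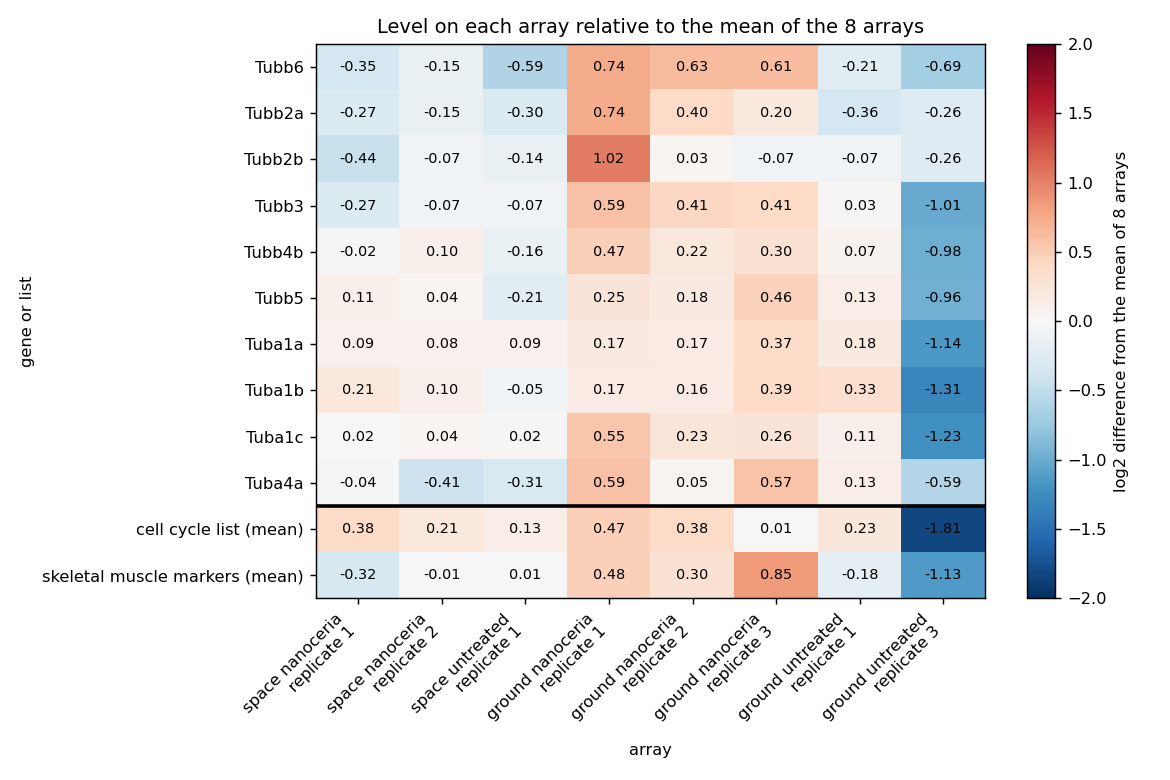
Level of each tubulin gene on each array, and the means of the cell cycle list (21 genes) and the skeletal muscle markers (9 genes), as log2 difference from the mean of the 8 arrays (red above, blue below). Tubb6 is positive only on the 3 ground nanoceria arrays (0.61 to 0.74), and the right-hand column, ground untreated replicate 3, is the lowest for 8 of the 10 tubulin genes and for both lists.

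In space, nanoceria-treated and untreated cells differed little in tubulin levels, with only 1 untreated array to compare. The difference was 0.34 ± 0.25 (SE) for Tubb6, and it ranged from -0.11 (Tubb2b) to 0.28 (Tubb5) for the other 9 genes, with standard errors of 0.26 to 0.56. Both treated arrays of Tubb6 lay above the untreated one, at 10.32 and 10.52 against 10.07. The difference between the nanoceria effects in space and on the ground was -0.76 ± 0.32 (SE) for Tubb6 and -0.66 ± 0.32 (SE) for Tubb2a. It was negative for all 10 genes, with a median of -0.64. Without ground untreated replicate 3 the median was -0.21, with -0.52 for Tubb6 and -0.715 for Tubb2a, and it was positive for Tubb5 (0.12) and Tuba1b (0.30).

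The next question was whether tubulin levels followed the gravity regime. The fit over both treatments assumed the same regime difference in treated and untreated cells. In that fit all 6 beta isotypes averaged lower in space, with a median of -0.31, and the alpha isotypes had a median of 0.055. The median over all probe sets was -0.044. Without ground untreated replicate 3 the alpha isotypes were all lower, at -0.13 (Tuba1a), -0.17 (Tuba1b), -0.25 (Tuba1c) and -0.58 (Tuba4a). The beta median was -0.61 within nanoceria-treated cells and 0.12 within untreated cells (1 space array), where 5 of 6 were higher. For the alpha isotypes these medians were -0.23 and 0.50. Over both treatments and all arrays, none of the 9 tested genes passed limma's moderated test after Benjamini-Hochberg adjustment over all probe sets. Their adjusted p ran from 0.521 to 0.997 in limma, where 0% of all probe sets passed. Tubb2a had an unadjusted p = 0.0491 in limma, with a difference of -0.42 ± 0.18 (SE). It was 1 of 9 lower at an unadjusted p under 0.05, against 4.26% of all probe sets. Of the 5 ground arrays, 3 were the ground nanoceria arrays, so this p-value is not independent of the nanoceria comparison on the ground. In untreated cells Tubb2a differed by 0.011. No gene had all 3 space arrays below all 5 ground arrays. In simulated data of this design, 49% of changes of 1 on the log2 scale were recovered over both treatments, and all tubulin estimates were smaller than that. The median of the 10 genes was -0.17. Leaving out 1 array at a time gave -0.45 (without the untreated space array) to -0.062 (without space nanoceria replicate 1). Without the untreated space array the regimes are compared in nanoceria-treated cells only, so -0.45 is the value within those cells. The next lowest was -0.35, without ground untreated replicate 3.

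Tuba4a had the lowest estimate of the tested genes. It had 11.16 and 10.79 with nanoceria and 10.89 without in space, against 11.79, 11.26 and 11.78 with nanoceria and 11.34 and 10.61 without on the ground. The groups overlapped, and its difference of -0.43 ± 0.23 (SE) had a 95% interval of -0.95 to 0.084. For Tuba1a the difference was 0.11 ± 0.29 (SE), with an interval of -0.55 to 0.76, and for Tuba1c it was 0.0046 ± 0.31 (SE), with an interval of -0.69 to 0.70. Tubb6, given without a test, differed by -0.64 ± 0.19 (SE).

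Within nanoceria-treated cells, all 10 tubulin genes averaged lower in space than on the ground, with a median of -0.45, against -0.051 over all probe sets. Without ground nanoceria replicate 1 the median was -0.24. Tubb2a had 11.28 and 11.41 in space, against 12.30, 11.95 and 11.76 on the ground, and differed by -0.65 ± 0.19 (SE), or 1.57-fold lower. Its unadjusted p was 0.0111 and its adjusted p was 0.457 in limma. Tuba4a differed by -0.63 ± 0.28 (SE), Tubb3 by -0.64 ± 0.29 (SE) and Tubb6, untested, by -0.91 ± 0.19 (SE). The adjusted p of the 9 tested genes ran from 0.457 to 0.974 in limma, where 0% of all probe sets passed, and 1 of 9 was lower at an unadjusted p under 0.05, against 3.39% of all. The simulation recovered 0% of changes of 1 on the log2 scale here, so the lack of calls says little about changes of this size. This comparison shares its 3 ground nanoceria arrays with the comparison of nanoceria on the ground, so its values are not a second line of evidence for those arrays.

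Within untreated cells, 1 space array stood against 2 ground arrays that differed from each other. Estimates for the 9 tested genes ran from -0.080 to 0.58, with limma's adjusted p at 0.99995 for each, and 0 of 9 had an unadjusted p under 0.05, against 3.14% of all probe sets. After adjustment 0% of all probe sets passed. In the simulation 0% of changes of 1 on the log2 scale were recovered here, so these p-values say little about changes of this size. The median of the 10 genes was 0.25, and it turned to -0.16 without ground untreated replicate 3.

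**Figure D2:**
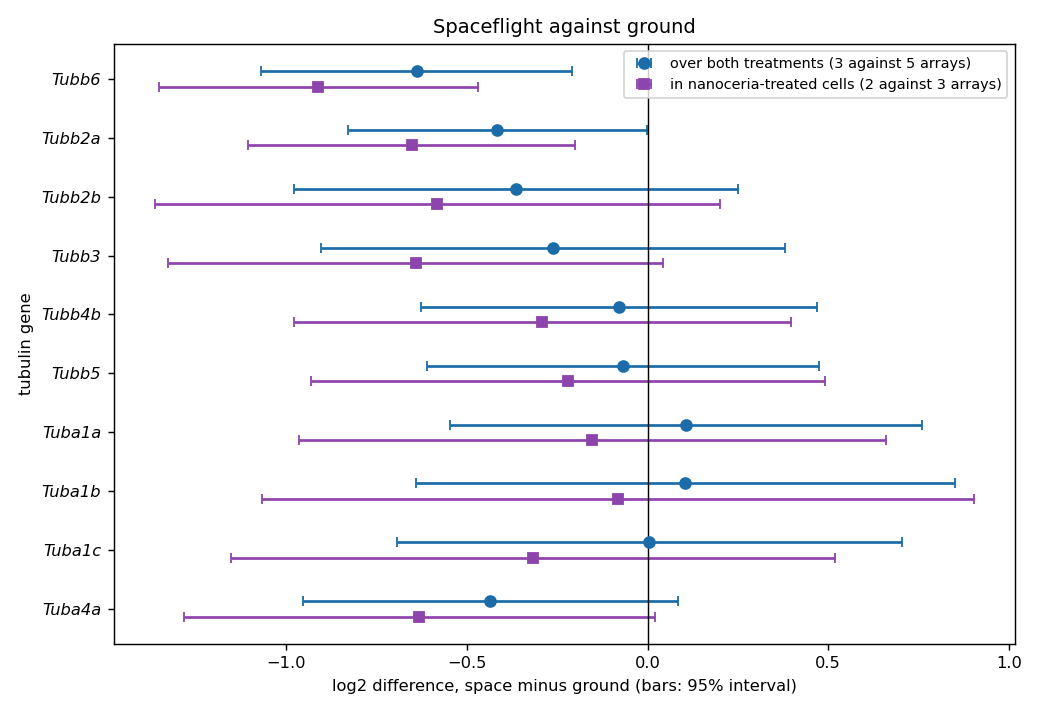
Log2 difference between space and ground for each tubulin gene, over both treatments (circles) and in nanoceria-treated cells (squares), with 95% intervals. The intervals of Tubb6 are a description and no test, since the family was chosen with its nanoceria result known. Those of Tubb2a, not adjusted for the number of probe sets, end at -0.0021 and -0.20, and those of the 8 other genes include 0.

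The 10 genes varied together to unequal degrees. Over the 45 pairs of genes, Pearson's r across the 8 arrays ran from 0.23 to 0.99 with a median of 0.79, a description over arrays that share their groups and their normalization. Tuba1a and Tuba1b were the closest pair at 0.99, which was 0.75 without ground untreated replicate 3. Tubb6 and Tubb2a had 0.90, and 0.92 without that array. Tubb2a and Tuba1b had 0.28, and 0.11 without it.

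The genes whose levels over the 8 arrays were most like those of Tubb6 were no tubulins. They were Gprc5a, an orphan receptor (r = 0.989), the zinc finger genes Zswim4 (r = 0.977) and Zfp93 (r = 0.977), Arpc4, a subunit of the actin-nucleating Arp2/3 complex (r = 0.974), and Ncoa5, a nuclear receptor coactivator (r = 0.973). Of the 27 nearest genes of the other 9 tubulins, 3 for each, 2 were tubulins, namely Tuba1a and Tuba1b for each other. Over as few as 8 arrays, such values describe the arrays and say nothing of shared control.

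Genes that work with tubulin were followed in 7 lists, with 81 of 109 listed genes measured. For space against ground over both treatments, 0 of the 81 passed limma's adjusted test, 5 were higher and 4 lower at an unadjusted p under 0.05, and their median was -0.0072. In nanoceria-treated cells, 0 passed, 4 were higher and 2 lower, with a median of 0.0041. Over all probe sets, 5.3% were higher and 4.26% lower at that level over both treatments, and 5.02% were higher and 3.39% lower in nanoceria-treated cells. For nanoceria on the ground their median was 0.015, against 0.74 for the 10 isotypes. Since this contrast was known when the isotypes were chosen, nothing is read from the gap. Without ground untreated replicate 3 the isotypes had 0.27, and medians of the 7 lists ran from -0.029 (gamma-tubulin complex) to 0.45 (folding cofactors). Of the 81 genes, 8 were higher on all ground nanoceria arrays than on the 5 others, against 6.79% of all probe sets.

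Among the other tubulin genes, Tubg1, the gamma-tubulin that nucleates microtubules, had 10.57, 10.20 and 10.55 in treated cells on the ground, against 10.10 and 9.34 in untreated cells on the ground. Its difference there was 0.72 ± 0.25 (SE), and 0.34 without ground untreated replicate 3. For space against ground it was -0.23 ± 0.19 (SE), and -0.36 without that array. Tuba3a, another alpha-tubulin gene, had 6.10, 6.42 and 6.78 in treated cells on the ground, against 5.78 and 5.77 in untreated cells on the ground, a difference of 0.66 ± 0.21 (SE). It thus showed no low value on ground untreated replicate 3. Tubb4a, a beta-tubulin of brain, differed by 0.24 ± 0.17 (SE), and by 0.17 without that array. Over the 7 measured genes of this list, 5 were higher and 2 lower with nanoceria on the ground, from -0.23 to 0.72 with a median of 0.099.

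The folding machinery moved in both directions, from -1.29 to 0.80 over 8 folding cofactors and from -0.74 to 0.29 over 12 genes of the chaperonin and prefoldin with nanoceria on the ground. Cct2, a subunit of the chaperonin that folds tubulin, differed by -0.091 ± 0.17 (SE), and by -0.20 without ground untreated replicate 3, Cct6a, another subunit, by -0.23 ± 0.17 (SE), and Pfdn1, of the prefoldin that hands tubulin to it, by -0.74 ± 0.30 (SE). Of the cofactors that join alpha to beta tubulin, Tbca differed by -0.23 ± 0.32 (SE) and Tbcc by 0.12 ± 0.27 (SE), and their regulator Arl2 by 0.12 ± 0.22 (SE). Without ground untreated replicate 3, Tbca turned to 0.20, Tbcc had 0.54 and Arl2 had 0.45, and the median of the folding cofactors was 0.45 in place of 0.12. Ttc5, the autoregulation factor, differed by 0.15 ± 0.22 (SE) with nanoceria on the ground (0.45 without that array) and by -0.13 ± 0.16 (SE) between space and ground. Tbcc had the largest space difference among these, -0.64 ± 0.21 (SE), with adjusted p = 0.429 in limma.

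Modifying enzymes and associated proteins moved in both directions. Ttl, which restores the C-terminal tyrosine of alpha tubulin, and Atat1, which acetylates it, differed by -0.0072 ± 0.14 (SE) for Ttl and -0.11 ± 0.15 (SE) for Atat1 between space and ground. Agtpbp1, which removes glutamates, differed by 0.53 ± 0.22 (SE), and Ttll12, a member of the tubulin ligase family, by -0.42 ± 0.16 (SE). Map4, a ubiquitous stabiliser of microtubules, differed by -0.080 ± 0.13 (SE), Map1s, a smaller relative of the neuronal proteins, by -0.33 ± 0.15 (SE), and Map1b, of growing axons, by 0.75 ± 0.32 (SE). None passed the adjusted test.

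The smallest unadjusted p-values for space in these lists belonged to proteins of the microtubule ends. Clip2, a plus-end binding protein, had 7.40 and 7.74 with nanoceria and 7.15 without in space, against 8.43, 8.12 and 8.33 with nanoceria and 7.84 and 7.63 without on the ground. It differed by -0.67 ± 0.14 (SE), with adjusted p = 0.334 in limma. Camsap2, which protects the minus ends of microtubules that have left the centrosome, had 10.47 and 10.15 with nanoceria and 10.71 without in space, against 9.00, 9.75 and 9.43 with nanoceria and 10.36 and 10.15 without on the ground. It differed by 0.75 ± 0.20 (SE), with adjusted p = 0.381 in limma. Mapre1, the end-binding protein EB1, differed by 0.17 ± 0.22 (SE). In the gamma-tubulin complex, Tubgcp5 differed by 0.51 ± 0.18 (SE), with adjusted p = 0.441, and its anchor Cdk5rap2 by 0.30 ± 0.14 (SE).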

How the data were processed

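The deposited table held 1 linear intensity per probe set and array (8.63 to 19506), made by the authors with RMA per the submitters' processing notes. Its software version and settings are not given in the sources used here, and with no detection measure, dim signals could not be set against background. The array's reference was Rnor_6.0 per the labels' protocols. Log2 was taken without a pseudocount, where the design had assumed log2 values. Of 23188 probe sets, 15049 carried 1 gene symbol, and the other 8139 carried none or more than 1. Differences were fitted to all probe sets with limma 3.58.1 in R 4.3.3, with p-values adjusted by Benjamini-Hochberg and a threshold of 0.05. Regime and treatment were additive terms in 1 fit, and there was a fit with 1 mean per group for comparisons within regime or treatment, in which the single untreated space array was assumed to vary like the others. The fits were tested on simulated data. The number of arrays limits the precision.

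The members and gene lists were chosen with earlier results of these data known. All 10 members were named, as were Ttc5, Stmn1, Map4, Mapre1, Ttl, Atat1, Hdac6 (not named on the array here), Tubg1, Tbca and Cct2, the 2 genes of each list with the smallest p for space against ground, and the 5 genes most like Tubb6. Other genes serve as markers. Alternatives were 2 other scalings, the brighter 66.7% of probe sets, other variance settings, array weights, the replicate number as a block and leaving out each array. The labels describe ground cultures in units of their own but do not tie arrays to them, so p-values reflect only how these samples spread, which may be technical. Ground untreated replicate 2 was not analysed here.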

Additional observations from a re-analysis of the deposited data

Results flagged for a closer look

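Tubb3 had differences of opposite sign with nanoceria in space and on the ground, as had Tubb2b and Tuba1a. They were -0.11 in space and 0.50 on the ground for Tubb2b, and -0.0022 and 0.72 for Tuba1a. Tubb3 had -0.10 ± 0.39 (SE) in space and 0.96 ± 0.29 (SE) on the ground. Both treated space arrays (7.92 and 8.12) lay below the untreated one (8.13), and all 3 treated ground arrays (8.79, 8.61 and 8.60) lay above both untreated ones (8.23 and 7.18). The difference of the nanoceria effects, space minus ground, was -1.06 ± 0.49 (SE), and -0.54 without ground untreated replicate 3. It was not tested, since the nanoceria results were known when the family was chosen, and in space it rests on 1 untreated array that nearly equalled the nearer treated one.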

How the results depend on the processing

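No tested tubulin passed the threshold for space against ground, over both treatments or within either, under any alternative run, but in simulated data of these designs 0% of 2-fold changes were recovered within either treatment and 49% over both, so this shows little about smaller changes. Of the 6 alternatives that kept all arrays, the brighter probe sets and the other variance settings cannot change a gene's estimate. The rest left the medians of every comparison within the replicate spread of 0.34 on the log2 scale. That spread is larger in size than the space medians, -0.17 over both treatments and 0.25 in untreated cells. With the replicate number as a block, the median in untreated cells was 0.021. Direction changed for genes near 0. With the replicate number as a replicate block, space against ground over both treatments gave -0.087 for Tuba1a, -0.13 for Tuba1b and -0.27 for Tuba1c, with a family median of -0.38, and with equal array medians Tuba1c had -0.011. Deviations of the 5 same-numbered pairs correlated at -0.35 to -0.013. In a group of 2 arrays the deviations mirror each other, so these values cannot settle whether the numbers mark a pairing. Leaving out 1 array at a time gave -0.29 to 0.038 for Tubb4b and -0.25 to 0.067 for Tubb5. It gave -0.15 to 0.25 for Tuba1a, -0.17 to 0.31 for Tuba1b and -0.32 to 0.14 for Tuba1c. The lower bounds for Tubb4b, Tuba1a and Tuba1c, and the family bound of -0.45 below, came without the untreated space array. Only nanoceria-treated cells then compare the regimes. The family median ran from -0.45 to -0.062 for space against ground over both treatments and from -0.52 to -0.24 in nanoceria-treated cells, with the bounds set by leaving out a space array or a ground nanoceria array. It ran from 0.18 to 0.76 for nanoceria over both regimes, 0.27 to 1.33 for nanoceria on the ground, -0.16 to 0.79 for space in untreated cells and -1.06 to -0.21 for the difference of nanoceria effects, with these last 8 bounds set by leaving out 1 or the other ground untreated array. The cause was not tested. Across all probe sets, counts past the threshold for space against ground rose above 0 with array weights (4), without ground nanoceria replicate 2 (1), without ground untreated replicate 3 (1) and, in untreated cells, without ground untreated replicate 1 (6), with 0 tubulins among them.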
